A study of Homo sapiens with 16 samples.

Results

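The comparison was between 2 lines of human cells that had received no doxycycline. One was U2OS-TR, an osteosarcoma cell line that stably makes the tetracycline repressor, with 3 libraries (No Dox 1 to 3). The other was U2OS-TR/dN-RNMT, derived from it by stable transfection with a plasmid for ΔN-RNMT, a catalytically inactive RNMT kept in the cytoplasm, with 5 uninduced libraries (Control 1 to 5). These 8 of the 16 samples of the series were chosen by their GEO descriptions, and the remaining 8 are the doxycycline-treated counterparts of the same lines. The transgene line was 1 clone selected with G418, so it also carried the plasmid and its drug resistance gene, and in it a CMV promoter with tetracycline operators drives ΔN-RNMT once doxycycline releases the repressor. The labels' treatment protocol speaks of doxycycline for all samples, while the sample descriptions name these 8 as controls without it. Cells of both lines were split and cultured for 48 h and then for 24 h more before harvest, and cytoplasmic RNA was turned into 3′ tag libraries that read the end of each polyadenylated transcript. Libraries of the transgene line were sequenced as paired 75-nt reads on a NextSeq 500 in Vienna and those of the parental line as paired 150-nt reads on a MiSeq in Columbus. Line, clone, instrument, read length and depth therefore cannot be told apart in any value below.

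RNMT is the methyltransferase that completes the 5′ cap of mRNA in the nucleus, and a cytoplasmic pool of the enzyme methylates caps that are restored on uncapped transcripts. The uninduced line is the reference for the effects of ΔN-RNMT, and the parental line is the reference for the effects of doxycycline itself. U2OS cells are mesenchymal, aneuploid tumour cells. Per the study's methods the libraries of the transgene line came from biological replicates and those of the parental line from separate cultures, so p-values measure the spread between cultures of 1 line each. In bulk RNA a lower level cannot be told apart from fewer cells that carry the transcript.

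Depth was 18991617 to 23251834 gene counts in the transgene libraries and 1578749 to 3214808 in the parental ones. Tags that fell outside annotated genes numbered 0.0747 to 0.101 for each gene count in the transgene line and 1.14 to 1.497 in the parental line, with no overlap (exact two-sided permutation test over 56 splits, p = 0.0357, which is the smallest possible, and 0.0571 after Benjamini-Hochberg adjustment over 8 library measures). A second difference concerned strand. In 233 annotated pairs, the exons of 1 gene cover the 3′ end of a gene on the opposite strand that exceeded 100 CPM (a gene's counts per 1000000 counts of the library, scaled by TMM, the trimmed mean of M values), and the covering gene was below 1% of it in the transgene line. In 92 of these pairs (39.5%) the covering gene exceeded 10% of its partner in the parental line, at a median of 86.5% (quartiles 51.0% and 99.7%), and 46 of the 92 had no count in any transgene library. The median over the 92 was 86.6%, 89.5% and 87.0% in parental libraries 1 to 3 and 0 in each transgene library. With the lines exchanged in the rule, so that the covering gene was below 1% in the parental line, 0 of 102 pairs exceeded 10% in the transgene line.

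Examples show how closely the covering gene followed its partner. TUBA1B, an α-tubulin, was at 1545, 3706 and 2489.9 CPM in parental libraries 1 to 3, and TUBA1B-AS1 on the other strand at 1578, 3661 and 2458 CPM. PRDX1, a peroxiredoxin, was at 1477, 2899 and 2498 CPM, and MMACHC, a cobalamin-processing gene with an exon that covers its 3′ end, at 1505, 2913 and 2502 CPM. IER3, an early response gene, was at 1076, 766 and 1233 CPM beside 1089, 779.8 and 1239 CPM for IER3-AS1. In the transgene line the means of the 3 covering genes were 2.01, 17.7 and 0.56 CPM, although the partners stood at 4137, 3769 and 13945 CPM. In such pairs the parental libraries held nearly equal counts on both strands, and reads from a gene and its antisense partner cannot be told apart there. Tags that fit several genes numbered 0.0142 to 0.0195 for each gene count in the transgene line and 0.0131 to 0.0161 in the parental line. The use of strand in counting is not given in the sources used here, and its part in the differences was not tested.

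The last 30 annotated bases of these 3 mRNAs lie inside an exon of the covering gene, and are shown because both genes hold them, on opposite strands (GRCh38, GENCODE 44; capitals mark the polyadenylation signal AATAAA or ATTAAA where a search of the 30 bases found one, read on the mRNA's strand).
TUBA1B, chr12:49127782-49127811, minus strand: tatctcaaagtaaagtcattaacatcaaaa
PRDX1, chr1:45511051-45511080, minus strand: tttgtagtttgtATTAAActtgaactgaga
PRDX1 on the strand of MMACHC: tctcagttcaagTTTAATacaaactacaaa
IER3, chr6:30743199-30743228, minus strand: aacacaAATAAAattgatttactgtctgca
The 30 bases of TUBA1B hold neither form of the signal, and the reverse complement of the PRDX1 end is what MMACHC's exon reads at that place.

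**Figure D1:**
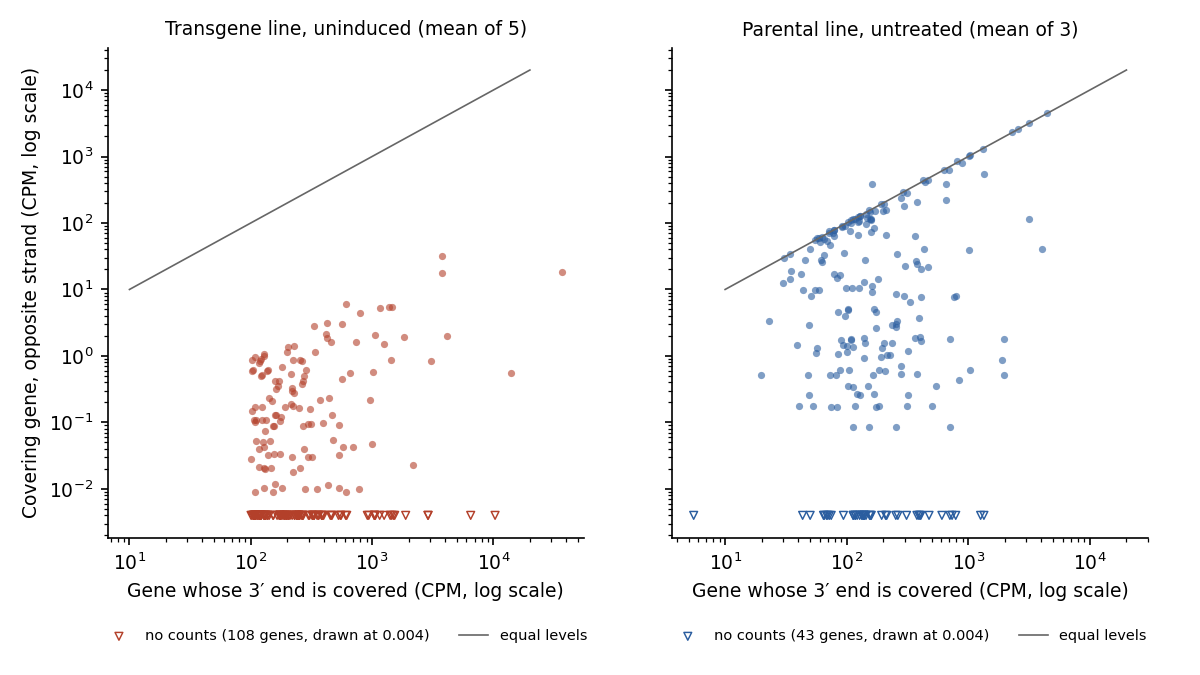
Levels of genes that cover the 3′ end of an abundant gene on the opposite strand (y axis, mean CPM, log scale) against the level of that abundant gene (x axis, mean CPM, log scale), in the 5 transgene and the 3 parental libraries; each point is 1 of 233 pairs, triangles are genes without counts and the line marks equal levels. Many parental points lie on the line, and every transgene point lies below 1% of it by the rule that chose the pairs.

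Other library measures also separated the lines. Ribosomal protein mRNAs took 23.7 to 24.9% of gene counts in the transgene line and 7.09 to 13.3% in the parental line, and transcripts of the mitochondrial genome 0.945 to 1.52% and 1.76 to 9.38%. The 100 most abundant genes held 36.4 to 42.5% against 27.1 to 28.0%, and after thinning to the shallowest library 14613 to 15235 against 15779 to 17035 genes had a count. Each of these measures kept the groups apart at the smallest exact p the design allows (0.0357, and 0.0571 adjusted). For MALAT1, a long RNA that stays in the nucleus, the groups overlapped, with a share of 0.043 to 0.0542% and 0.0311 to 0.135% (exact permutation p = 0.5).

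The labels were checked on RNMT itself. Uninduced, RNMT stood at 68.1, 57.0, 64.2, 77.0 and 118 CPM in transgene libraries 1 to 5, and at 73.6, 109 and 63.6 CPM in the parental libraries, so the groups overlapped (log2 fold change -0.09, SE 0.30; 95% interval -0.75 to 0.56; edgeR, adjusted p = 0.83). In the doxycycline-treated libraries it was 371 ± 88.6 CPM in the transgene line and 69.0 ± 16.6 CPM in the parental line (edgeR, log2 fold change 2.42, adjusted p = 0.000125). The line difference in RNMT was larger with doxycycline than without (edgeR, interaction 2.43 on the log2 scale, adjusted p = 0.0258). Other genes of cytoplasmic capping did not pass the test either, and their groups overlapped. RNGTT, the enzyme that adds the cap guanosine, was 27.6 ± 4.90 CPM in the transgene line and 14.4 ± 8.20 CPM in the parental line (edgeR, adjusted p = 0.0879). RAMAC, the activating partner of RNMT, was 4.12 ± 1.13 and 7.78 ± 3.75 CPM (edgeR, adjusted p = 0.0894), and NCK1, an adaptor that binds the cytoplasmic capping enzymes, 2.04 ± 0.914 and 5.31 ± 2.33 CPM (adjusted p = 0.052). FAM210A, which lies next to RNMT on chromosome 18, was 40.0 ± 3.58 and 35.4 ± 11.1 CPM (edgeR, adjusted p = 0.622). Among all 14 genes of the capping list 1 rose and 1 fell (7.14% each), a lower share than the 15.8% higher and 22.8% lower over all genes tested. NUDT16, a decapping enzyme, rose (35.2 ± 8.10 against 16.7 ± 6.15 CPM, edgeR, adjusted p = 0.0228). CMTR2, a cap ribose methyltransferase, fell (5.87 ± 0.837 against 12.8 ± 4.42 CPM, edgeR, adjusted p = 0.0135). NUDT16 no longer passed without parental library 1 (log2 fold change 0.79) or with limma voom, total counts or thinning to the shallowest library (adjusted p = 0.0571, 0.1 and 0.0569). CMTR2 no longer passed with GC offsets, a replicate block or no filter (adjusted p = 0.125, 0.128 and 0.0579).

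Both lines expressed most mesenchymal markers. Means are given with the SD over 5 transgene and 3 parental libraries. Of the 11 mesenchymal markers, VIM, FN1, SPARC, CDH2, RUNX2 and COL5A1 did not pass the test. The first 5 stood at 171 ± 104, 198 ± 29.2, 211 ± 44.9, 166 ± 31.3 and 7.96 ± 2.97 CPM in the transgene line and 278 ± 121, 157 ± 73.3, 278 ± 54.3, 135 ± 71.9 and 7.06 ± 2.30 CPM in the parental line. COL1A1, the main chain of type I collagen, was lower in the clone at 92.2, 75.2, 68.2, 76.9 and 62.0 CPM against 256, 103 and 348 CPM, without overlap (log2 fold change -1.65, SE 0.34; edgeR, adjusted p = 0.00352). CD44, a hyaluronan receptor, was higher (200.1 ± 57.0 against 72.1 ± 8.43 CPM, edgeR, adjusted p = 0.00278), and S100A6 was lower (197 ± 112 against 476 ± 83.2 CPM, adjusted p = 0.0215). S100A6 no longer passed without transgene library 1, 2 or 4 or parental library 2 (log2 fold change -1.21 to -1.11). COL1A2 had no count in any of the 8 libraries and TWIST1 had 2 counts, both parental, so these markers were at the floor of the libraries, where 3 counts over the group are 0.0314 CPM in the transgene and 0.39 CPM in the parental line. Of 17 markers of blood, endothelium, nerve, muscle and fat, 15 stayed below 2 CPM in every library, and SYP and DES reached 7.34 and 5.89 CPM. CD3E, PECAM1, SOX10, GFAP and ADIPOQ had no count in any library. Among the epithelial markers, KRT19 and ESRP1 had none in the parental line and at most 0.363 CPM in the clone. The epithelial markers CLDN4 and EPCAM were detected in both lines, at means of 8.79 and 8.12 CPM in the clone and 42.6 and 2.50 CPM in the parental line. The longer lists were not all near 0. Over them, the summed level of 18 blood genes ran from 3.93 to 9.31 CPM in the transgene libraries and from 14.2 to 19.3 CPM in the parental ones, that of 18 epithelial genes from 25.7 to 31.9 CPM in the transgene libraries and from 61.1 to 93.1 CPM in the parental ones, that of 10 endothelial genes from 16.1 to 21.1 CPM in the transgene libraries and from 20.0 to 30.4 CPM in the parental ones, and that of 12 neural genes from 11.8 to 16.8 CPM in the transgene libraries and from 25.4 to 30.5 CPM in the parental ones. For 12 muscle and fat genes the sum ran from 347 to 640.2 CPM in the transgene libraries and from 311 to 409 CPM in the parental ones, most of it TNNT1, a troponin of slow muscle (501 ± 111 against 344 ± 56.2 CPM, edgeR, adjusted p = 0.134). The line difference in these sums was not tested, and members that passed included ITGB2, an integrin chain of leukocytes (2.23 ± 1.73 against 14.2 ± 2.47 CPM), the claudin CLDN4 (8.79 ± 2.58 against 42.6 ± 12.6 CPM), the microtubule protein MAP2 (0.42 ± 0.0537 against 9.09 ± 3.96 CPM) and, in the opposite direction, the adhesion molecule EPCAM (8.12 ± 2.44 against 2.50 ± 0.781 CPM). ITGB2, the 1 blood gene tested, has a neighbour on the opposite strand, whose part in its parental level was not tested.

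The most abundant nuclear transcripts were shared in part. Of the 100 genes with the highest mean in each line, 65 were shared, and of the top 500, 309. Among the 12 with the highest level in the lower of both lines were 8 ribosomal protein genes. CHCHD2, a mitochondrial intermembrane protein, had 13486 ± 2271 CPM in the clone and 8453 ± 2246 CPM in the parental line (edgeR, adjusted p = 0.116). SFN, the 14-3-3σ protein, had 5610.3 ± 2199.6 and 3906 ± 675 CPM (edgeR, adjusted p = 0.277), and DHRS2, a short-chain dehydrogenase, 3245 ± 2148 and 7227 ± 3080.5 CPM (adjusted p = 0.122). The groups overlapped in all 3 genes. TUBA1C, an α-tubulin, was 10324 ± 1838 CPM against 4474 ± 2013 CPM (edgeR, adjusted p = 0.0265), and no longer passed without transgene library 1, 2 or 4 or parental library 3 (log2 fold change 1.16 to 1.21). In the parental line the gene that covers the 3′ end of TUBA1C on the opposite strand had a like mean, 4537 CPM.
GAPDH, the glycolytic enzyme used as a reference in many assays, ranged from 2975 to 11722 CPM in the clone and from 1526 to 5434 CPM in the parental line, and ACTB from 456 to 1566 and 533 to 980.4 CPM. Neither passed the test (edgeR, adjusted p = 0.137 and 0.68).

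Agreement that the data can state, as opposed to a missed threshold, was limited by the replicates. For 2126 of 12325 genes (17.2%) the 95% interval of the fold change lay inside 2-fold either way, and for 122 inside 1.5-fold. Of the 7565 genes that were not called, 5440 had wider intervals, so a 2-fold difference was not excluded for them. Of the 1160 genes with at least 100 CPM in both lines, 317 (27.3%) had an interval inside 2-fold and 389 were called at 1.5-fold. Across genes, Spearman's rho of log2 CPM was 0.662 to 0.804 for the 15 pairs of libraries from different lines, 0.848 to 0.993 for the 10 pairs within the clone and 0.835 to 0.912 for the 3 pairs within the parental line. Among genes without an annotated neighbour on the opposite strand the median between lines was 0.766, against 0.716 over all genes.

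Differences were many and ran in both directions. Of 12325 genes tested, 4760 (38.6%) passed edgeR's quasi-likelihood test at an adjusted p below 0.05. Of all genes tested, 1943 (15.8%) were called and at least 1.5-fold higher in the clone and 2815 (22.8%) called and at least 1.5-fold lower. Scaling to total counts in place of TMM moved the split from 40.8% to 20.8% of calls higher (1147 higher and 4355 lower). The median over the tested genes then went from -0.14 to -0.56 on the log2 scale, so directions are given relative to the TMM scale. Groups did not overlap for 4708 genes (38.2%). Fitted alone, the 4086 genes without an opposite-strand neighbour gave 639 higher (15.6%) and 790 lower (19.3%). Large falls were of another kind than large rises: of the 554 genes called more than 16-fold lower, 286 were long non-coding RNAs and 92.6% had a neighbour on the opposite strand, against 53.7% of the 67 genes called more than 16-fold higher and 66.6% of all genes tested.

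**Figure D2:**
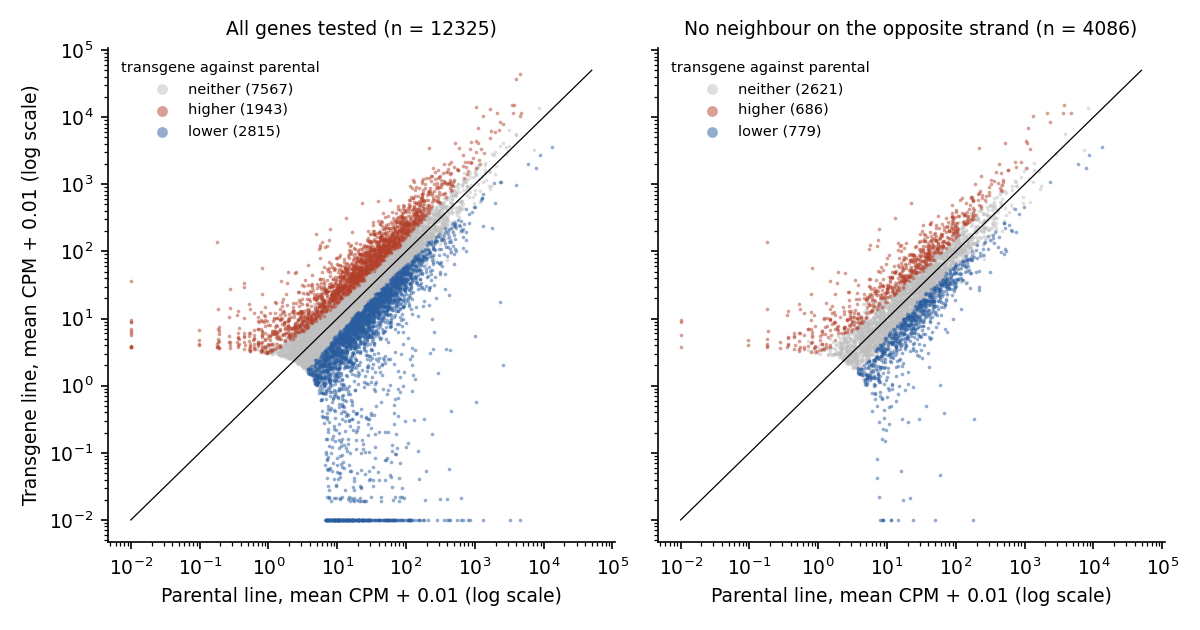
Mean CPM of each gene in the transgene line (y axis) against the parental line (x axis), both with 0.01 added and on log scales, for all 12325 genes tested (left) and for the 4086 without an opposite-strand neighbour (right); red and blue are genes called at least 1.5-fold higher or lower in the transgene line in the fit over all genes, and the line marks equal levels. The row of blue points at the bottom of the left panel, genes without counts in the transgene line, is thinly filled on the right.

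The 12 largest rises were taken among protein-coding and long non-coding genes that have a symbol, at least 20 CPM in the clone and groups that do not overlap. SPINK6, a secreted protease inhibitor of epithelia, was 37.1, 31.5, 46.9, 33.3 and 31.6 CPM in transgene libraries 1 to 5 and had no count in the parental libraries, so it was at least 92.5-fold higher against a floor of 3 counts over that group (edgeR, adjusted p = 8.89e-06). HOXB2, a homeobox gene that sets position along the body axis, was 32.0, 31.6, 32.3, 31.9 and 43.2 CPM in the clone and 0.507, 0 and 0.778 CPM in the parental line, which rests on 4 parental counts (66.5-fold; log2 fold change 6.06, SE 0.48; edgeR, adjusted p = 8.41e-06). HOXB-AS1, on the other strand of the same locus, was 29.6 ± 11.97 against 0.429 ± 0.395 CPM. Every transgene library exceeded every parental library in all 3 genes, as the selection required.
CST6, a secreted cysteine protease inhibitor, was 52.6, 54.1, 103, 43.3 and 28.3 CPM against 0, 1.07 and 1.30 CPM (log2 fold change 5.98, SE 0.68; edgeR, adjusted p = 8.59e-05). C5orf46, a small secreted protein, stood at 179 ± 40.5 against 4.94 ± 0.594 CPM (35.8-fold), and GFRA1, the receptor subunit for the neurotrophic factor GDNF, at 23.4 ± 4.33 against 0.786 ± 0.282 CPM (29.7-fold). DLX4, a homeobox gene, reached 36.6 ± 2.51 CPM from 1.49 ± 1.10 CPM (25.04-fold).
LTB, a membrane-bound cytokine, had 49.0 ± 11.6 against 1.93 ± 1.23 CPM (24.3-fold). VAMP8, a SNARE protein of endosomes and secretory granules, had 139.7 ± 48.7 against 5.98 ± 0.918 CPM (23.6-fold), and NRG1, a ligand of ERBB receptors, 126 ± 22.1 against 5.59 ± 3.29 CPM (23.6-fold). VSTM1, an inhibitory receptor known from leukocytes, was 570.0, 602, 732, 454 and 296 CPM against 12.2, 33.2 and 22.3 CPM (23.5-fold), and ALDH4A1, a mitochondrial enzyme of proline breakdown, 358, 349, 386, 272 and 183 against 10.7, 14.997 and 14.01 CPM (23.3-fold). Adjusted p of these 8 genes lay between 2.55e-06 and 3.67e-05 (edgeR).

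Further rises reached high levels. TGFBI, a matrix protein induced by TGF-β, was 3973, 4015, 3182, 3631 and 2499 CPM in the clone and 159, 142 and 344 CPM in the parental libraries (log2 fold change 4.01, SE 0.42; 16.1-fold; edgeR, adjusted p = 4.81e-05). IER3, a regulator of survival and NF-kB signalling, was 13728, 14191, 21963, 12670.4 and 7174 CPM against 1076, 766 and 1233 CPM (log2 fold change 3.77, SE 0.45; 13.6-fold; edgeR, adjusted p = 0.000122). The groups were far apart in both genes. In the parental line IER3-AS1 on the other strand stood at nearly the level of IER3 (means 1036 and 1025 CPM). Reads of IER3 and IER3-AS1 cannot be told apart there. Within the genes without an opposite-strand neighbour the largest rises also took in FGD4, an activator of CDC42 (20.1-fold), MYL2, a cardiac and slow-muscle myosin light chain (108 ± 33.4 against 5.39 ± 0.921 CPM), ESM1, a proteoglycan of endothelium (18.9-fold), and EYA2, a phosphatase and transcriptional coactivator (16.9-fold).

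The 12 largest falls by the same rule, which passes over genes without a symbol, were all in genes with a neighbour on the opposite strand. CAPN12, a calpain, had no count in the clone and 279, 448 and 328 CPM in the parental libraries, where ACTN4 opposite it had a mean of 395 CPM. RCC2-AS1 had none against 426, 519.5 and 307 CPM, beside 433 CPM for RCC2, and GPR62, an orphan receptor, a single count in the clone against 198, 147 and 224 CPM, beside 190.4 CPM for PCBP4. In these 3 genes the parental level was near that of the gene opposite.
Levels of the same order were found for BZW1-AS1, COCH, KCNK15, NOP53-AS1, RSPH10B, ST6GALNAC2 and WDR38, with 107 ± 91.4, 121 ± 60.9, 116 ± 49.8, 97.3 ± 63.5, 113 ± 67.4, 308 ± 55.2 and 389.9 ± 403 CPM in the parental line beside 157, 146, 113, 143, 155, 364 and 661 CPM for the genes opposite. BEST1 was at 43.1, 953 and 172 CPM in parental libraries 1 to 3 beside 55.8, 269 and 163 CPM for the ferritin gene FTH1 opposite it, and exceeded its partner clearly in library 2 alone. MIF-AS1 was far above its neighbour, with 869, 696 and 481 CPM in the parental line beside 18.2 CPM for MIF. Against a floor of 3 counts over the transgene group, CAPN12 was at least 11176-fold and MIF-AS1 at least 21693-fold higher in the parental line (edgeR, adjusted p = 3.56e-06 and 3.91e-06). Where such a gene and its neighbour cannot be told apart, the value is not a level of the named gene alone.

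Falls among genes without an opposite-strand neighbour were a selection added after the pairs above had been seen. MXRA8, an adhesion protein of the matrix, was 0.261, 0.36, 0.626, 0.1 and 0.182 CPM in the clone and 179, 205 and 168 CPM in the parental line (log2 fold change -9.22, SE 0.45; 596-fold; edgeR, adjusted p = 4.12e-07). HAPLN1, which links hyaluronan to proteoglycans, was 0.784, 1.20, 1.08, 1 and 1.09 against 38.6, 64.3 and 74.4 CPM (log2 fold change -5.83, SE 0.30; 57.0-fold; edgeR, adjusted p = 5.99e-07). The parental libraries exceeded every library of the clone more than 10-fold in both genes.
COL5A2, a chain of type V collagen, was 1.05 ± 0.423 against 20.2 ± 10.5 CPM (19.3-fold), and COL3A1, the chain of type III collagen, had 1 count in the clone and 19.3, 6.96 and 24.1 CPM in the parental line (pooled ratio 1786, 95% counting interval 316 to 71029). The counting intervals of COL3A1 and, below, MAGEC1 pool the counts of each line and leave out the spread between cultures. Of the receptors and junction genes, ACKR3, a scavenging chemokine receptor, was 0.305 ± 0.251 against 28.8 ± 6.12 CPM (88.3-fold), NOTCH3 1.87 ± 0.275 against 40.8 ± 26.6 CPM (21.7-fold) and GJA1, the gap junction protein connexin 43, 1.59 ± 0.333 against 20.3 ± 11.2 CPM (12.7-fold). AURKC, a meiotic kinase, was 0.948 ± 0.289 against 24.2 ± 7.85 CPM (25.1-fold).
MAGEC1, a cancer-testis antigen on the X chromosome, had 3 counts in 1 transgene library, none in the others, and 47.7, 41.2 and 85.9 CPM in the parental libraries (pooled ratio 2075, 95% counting interval 706 to 10098). H2AJ, a replication-independent histone H2A, had none in the clone and 107, 14.5 and 29.6 CPM in the parental line (at least 1602-fold), and the long RNA LINC01029 none against 23.9, 24.1 and 23.9 CPM (at least 761-fold). PICSAR, a long RNA, had 1 count in the clone against 19.8, 17.7 and 27.5 CPM, and TSTD1, a sulfurtransferase, 0.382 ± 0.171 against 67.5 ± 14.3 CPM (174-fold). Adjusted p of the 12 largest such falls with at least 20 CPM, which leave out COL3A1, lay between 5.19e-07 and 0.000269 (edgeR). The rule that named large falls asks for groups that do not overlap, so no transgene library reached the lowest parental one in any of them.

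**Figure D3:**
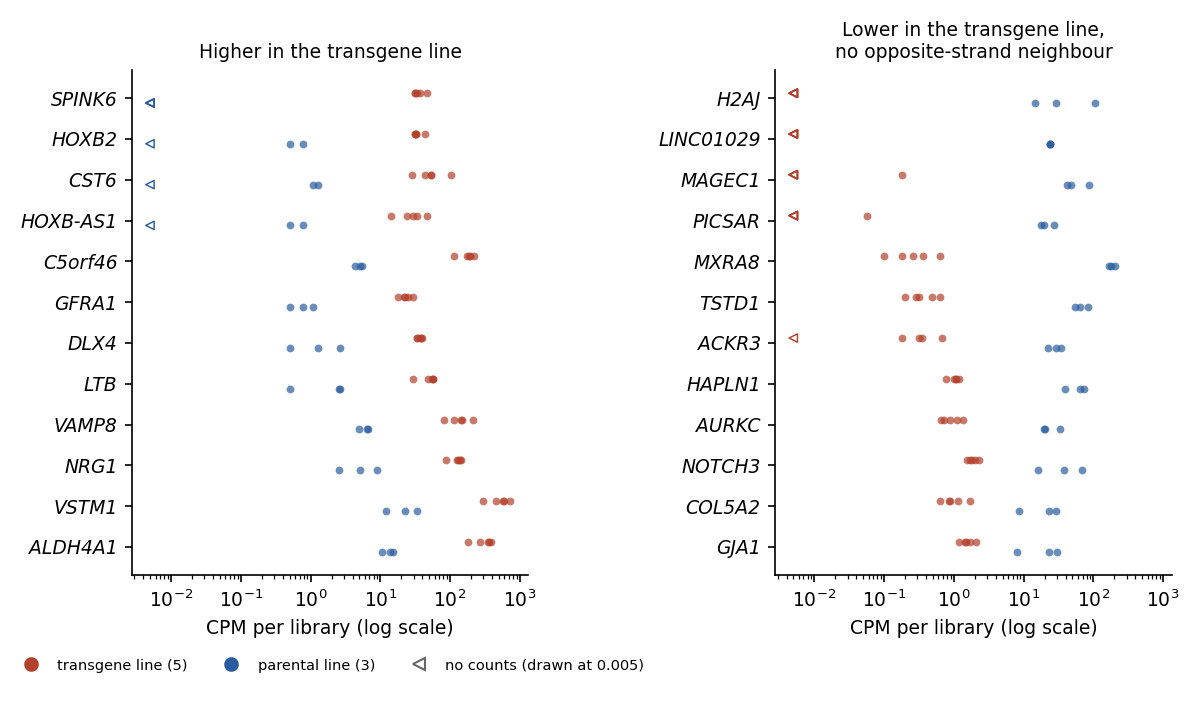
CPM in each library (log scale) of the 12 largest rises in the transgene line (left) and of the 12 largest falls among genes without an opposite-strand neighbour (right); red points are the 5 transgene libraries, blue points the 3 parental libraries and open triangles libraries without a count. The rule that named large rises and falls asks for groups that do not overlap, so red and blue points do not overlap in any of the 24 genes.

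The gene lists that follow are described by counts and medians, beside 15.8% higher, 22.8% lower and a median log2 fold change of -0.14 over the genes tested. Scaled to total counts the medians of ribosomal proteins, nuclear oxidative phosphorylation genes, histones and interferon-stimulated genes stayed above 0 (0.32, 0.27, 0.18 and 0.02), and those of mitochondrial ribosomal proteins, translation factors and glycolysis went to -0.04, -0.32 and -0.30. Of 84 ribosomal protein genes tested, 34 rose (40.5%) and 2 fell, with a median of 0.71. RPS27A, which encodes ubiquitin fused to a ribosomal protein, was 46734, 50019.7, 50517, 41899 and 33134 CPM in the clone and 1153, 7924 and 4510.1 CPM in the parental line (log2 fold change 3.30, SE 0.60; edgeR, adjusted p = 0.00177). RPLP0 of the ribosomal stalk was 13093 ± 2012 against 1666 ± 1395 CPM (7.86-fold) and RPL27A 36926 ± 13179.9 against 4017 ± 1443 CPM (9.19-fold), while RPS23 did not pass (edgeR, adjusted p = 0.788). RPL32 and RPL10 were the 2 that fell, RPL32 at 1047 ± 69.5 against 1901 ± 560.4 CPM (edgeR, adjusted p = 0.024), and it no longer passed without transgene library 1, 2 or 4 or parental library 2 or 3 (log2 fold change -0.87 to -0.68). Parental library 1 held the lowest ribosomal protein sum of the 8 libraries, and the summed level ran from 251011 to 287459 CPM in the transgene libraries and from 56795 to 116926 CPM in the parental ones. Many of these genes have near-identical processed pseudogenes, so how tags were divided between copies is uncertain. Of 95 processed pseudogenes tested, 49 were higher and 7 lower in the clone (median 1.52).

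Of 74 nuclear genes of oxidative phosphorylation, 27 rose (36.5%) and 2 fell (median 0.66), among them NDUFB8 of complex I (832 ± 87.3 against 176 ± 59.2 CPM, 4.74-fold) and ATP5F1E of the ATP synthase (1257 ± 219.9 against 195 ± 207 CPM, 6.44-fold), while cytochrome c, CYCS, fell (133 ± 37.6 against 365 ± 179 CPM). Of 77 mitochondrial ribosomal proteins 22 rose and 2 fell (median 0.39), with MRPL4 at 6.44-fold and MRPL27 at 4.33-fold. In the parental line a gene covering MRPL4 on the opposite strand had 40.7 CPM, beside 50.1 CPM for MRPL4. Transcripts of the mitochondrial genome went the other way. Of 24 tested, 0 rose and 16 fell (median -1.79), and in 10 of the 24 the parental libraries all lay above the transgene ones. Groups did not overlap, in either direction, for 38.2% of all genes tested. Of the 10 genes without an opposite-strand neighbour 5 fell (median -1.22). The summed level ran from 9973 to 16999.7 CPM in the transgene libraries and was 75169, 15449 and 48224 CPM in parental libraries 1 to 3. Parental library 2 thus lay within the transgene range. MT-ATP6 was 2291, 1958, 2003, 1392 and 1012 CPM in the clone and 7898, 2747 and 12528 CPM in the parental line (log2 fold change -2.16, SE 0.45; edgeR, adjusted p = 0.00392), and parental library 2 was the lowest of its group. MT-ND6, the one mitochondrial messenger encoded on the light strand and so opposite abundant heavy-strand transcripts, was 20.1 ± 5.95 against 275 ± 183 CPM. Translation factors were divided, 12 of 53 higher and 8 lower. EIF3K (4.23-fold) and EEF1B2 (2.90-fold) rose, and EIF5A fell (1.91 ± 0.588 against 14.2 ± 3.49 CPM).

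CDKN1A, the cyclin-dependent kinase inhibitor p21, was 1071, 1118, 1286, 947 and 669 CPM in the clone and 151, 212 and 202 CPM in the parental line (log2 fold change 2.43, SE 0.30; edgeR, adjusted p = 0.000161), and the groups did not meet. PHLDA3, an inhibitor of AKT, was 589 ± 215 against 114 ± 50.1 CPM (5.16-fold), TRIAP1 470.2 ± 99.5 against 91.9 ± 39.3 CPM (5.12-fold) and the nuclease AEN 584 ± 127 against 178 ± 58.5 CPM (3.27-fold). The list of telomere maintenance and tumour suppressor genes also holds CDK4, a kinase that drives the cell cycle. Of its 18 genes tested 2 rose and 6 fell, CDK4 among the latter (146 ± 26.1 against 438 ± 107 CPM, edgeR, adjusted p = 0.000764). Of the 3 tested without an opposite-strand neighbour 1 fell.

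Of 24 interferon-stimulated genes 8 rose (33.3%) and 1 fell (median 0.42). HLA-C was 88.9 ± 8.19 against 23.2 ± 11.9 CPM (3.82-fold), ISG15 69.3 ± 20.9 against 18.97 ± 5.70 CPM (3.69-fold) and IFIT1 12.3 ± 3.29 against 3.04 ± 2.60 CPM (3.68-fold). HLA-C shares long identical stretches with its paralogs, so how tags were divided between them is uncertain. PSMB9, a subunit of the immunoproteasome, was the 1 that fell (9.14 ± 2.00 against 33.8 ± 5.16 CPM), and B2M, the light chain of HLA class I, did not pass (987 ± 133 against 656 ± 182 CPM, edgeR, adjusted p = 0.101). In the NF-kB list 4 of 13 rose, such as NFKB2 (9.28 ± 2.12 against 1.91 ± 0.34 CPM) and 3 fell. Of 19 early response genes 3 rose, IER3, PHLDA1 (8.50-fold) and FOSL2 (2.44-fold), and 4 fell, with the phosphatase DUSP1 at 6.97 ± 6.44 against 44.3 ± 34.3 CPM, which no longer passed without parental library 2 (log2 fold change -1.86). Of 12 canonical histone genes tested 3 rose and none fell, H1-2 at 106 ± 13.4 against 14.7 ± 11.6 CPM.

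Of 29 collagens, laminins and integrins 6 rose and 12 fell (median -0.72), and relative to all genes the median turned to 0.13 with thinning to the shallowest library and 0.55 with thinning among genes without an opposite-strand neighbour. ITGB4, the β4 chain of hemidesmosome integrin, was 74.4, 70.4, 75.1, 52.3 and 41.5 CPM against 4.06, 3.75 and 3.37 CPM (16.96-fold; edgeR, adjusted p = 1e-05) and ITGB5 918 ± 148 against 141 ± 34.4 CPM (6.50-fold). The laminin LAMA5 fell (8.98 ± 2.64 against 48.9 ± 16.01 CPM), as did 3 of 12 osteoblast and mesenchymal matrix genes, COL1A1, COL3A1 and COL5A2.
Of 24 matrix-remodelling genes 7 rose and 9 fell. MMP9, a gelatinase, was 17.5 ± 4.06 against 1.56 ± 0.0425 CPM (11.2-fold), and TIMP2 1049.5 ± 185 against 366 ± 108 CPM (2.87-fold). The protease ADAMTS1 was 0.208 ± 0.116 against 9.53 ± 2.60 CPM and the crosslinking enzyme LOXL1 55.3, 53.9, 32.1, 48.9 and 42.5 against 337, 356 and 409.8 CPM (log2 fold change -2.98, SE 0.24; edgeR, adjusted p = 9.25e-06). Of 27 genes responsive to YAP or TGF-β 6 rose and 10 fell, of 20 adhesion genes 3 and 3, including the cadherin CDH4 (129 ± 40.4 against 21.2 ± 5.97 CPM) and ALCAM (86.5 ± 8.49 against 226 ± 17.1 CPM), and of 47 cytoskeletal genes 12 and 8, including TAGLN2, an actin-binding protein (6854 ± 2386 against 1121 ± 336 CPM), TUBB2B (6.32-fold) and MYL6, which fell (243 ± 33.6 against 602 ± 146 CPM). Of the 6 cytoskeletal genes without an opposite-strand neighbour 0 fell, so MYL6 has such a neighbour.

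In cholesterol synthesis 5 of 30 rose and 11 fell (median -0.71). MSMO1, a sterol methyl oxidase, was 9.57, 8.93, 11.8, 9.70 and 9.40 CPM against 90.3, 83.6 and 99.1 CPM (log2 fold change -3.20, SE 0.21; edgeR, adjusted p = 2.04e-06), while NSDHL of the same pathway rose (216 ± 82.3 against 45.7 ± 16.1 CPM). Of 29 NRF2 and antioxidant genes 3 rose and 11 fell, with NQO1 at 22.8 ± 5.56 against 109 ± 27.1 CPM and the ferritin chain FTL at 358 ± 9.61 against 832 ± 204 CPM, and with GSTP1 the other way (4448 ± 1371 against 1038 ± 141 CPM). Of 35 ATF4 targets 4 rose and 11 fell. DDIT3, the stress factor CHOP, fell 6.55-fold, and ASNS and PYCR1 of amino acid synthesis rose 4.04-fold and 4.31-fold. In the parental line the gene covering PYCR1 on the opposite strand had 293 CPM, beside 291 CPM for PYCR1.
The unfolded protein response list gave 5 of 24 higher, with the chaperone HSPA5 at 1066 ± 199 against 360.3 ± 98.8 CPM, and 7 lower. Of 25 heat shock genes and chaperones 3 rose, DNAJB1 at 936 ± 246 against 113 ± 16.3 CPM, and 5 fell, with the small heat shock protein CRYAB at 1.46, 1.26, 1.71, 1 and 1.27 CPM against 66.5, 87.8 and 94.2 CPM (61.5-fold; edgeR, adjusted p = 2.37e-07). Of the 9 without an opposite-strand neighbour 0 fell, so CRYAB has such a neighbour. The part of that neighbour in the value was not tested. Of 33 glycolysis and hypoxia genes 4 rose, among them the peptide hormone ADM (59.5 ± 6.11 against 6.43 ± 5.38 CPM), and 7 fell, HIF1A among them (43.2 ± 7.01 against 209 ± 42.7 CPM). In the metal response list 6 of 10 fell and 1 rose, the metallothionein MT2A (916 ± 194 against 321 ± 266 CPM), which no longer passed without transgene library 1, 2 or 4 or parental library 1 or 3 (log2 fold change 1.05 to 1.497).

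S-phase genes gave 4 higher and 6 lower of 40, with thymidylate synthase, TYMS, at 453 ± 104 against 1018 ± 118 CPM. Genes of G2 and mitosis gave 4 higher and 12 lower of 43, with the kinase AURKB rising (677 ± 156 against 275 ± 99.0 CPM) and the chromatin protein HMGB2 falling (26.2 ± 11.6 against 218 ± 76.0 CPM). Cleavage and polyadenylation genes gave 3 higher and 5 lower of 22, CPSF4 rising 2.56-fold and the poly(A) polymerase PAPOLA falling 5.10-fold. Nuclear-retained and host long RNAs gave 1 higher, JPX (70.8 ± 7.46 against 19.9 ± 4.64 CPM), and 10 lower of 28, NORAD among them (92.1 ± 30.2 against 357 ± 110.4 CPM).
HOX genes gave 4 higher and 4 lower of 25. HOXC9 was 92.4 ± 25.2 against 37.0 ± 14.2 CPM and HOXC6 of the same cluster 25.2 ± 1.74 against 71.2 ± 39.4 CPM, and both passed the test (edgeR, adjusted p = 0.00994 and 0.00326). Cancer-testis antigens gave 1 higher of 11, CT83 (9.01 ± 1.68 against 0.709 ± 0.82 CPM), and 1 lower, MAGEC1, while PRAME was at 765 ± 163 and 581 ± 309 CPM (edgeR, adjusted p = 0.388). STRN4 and VDAC3, which the study used as a control and as a target of cytoplasmic capping, also differed between the untreated lines. STRN4 was 21.8 ± 5.40 against 70.6 ± 16.1 CPM (edgeR, adjusted p = 0.0008) and VDAC3 177 ± 4.46 against 112 ± 12.9 CPM (adjusted p = 0.0262). VDAC3 no longer passed without transgene library 1, 2 or 4 or parental library 1 (log2 fold change 0.58 to 0.67).

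**Figure D4:**
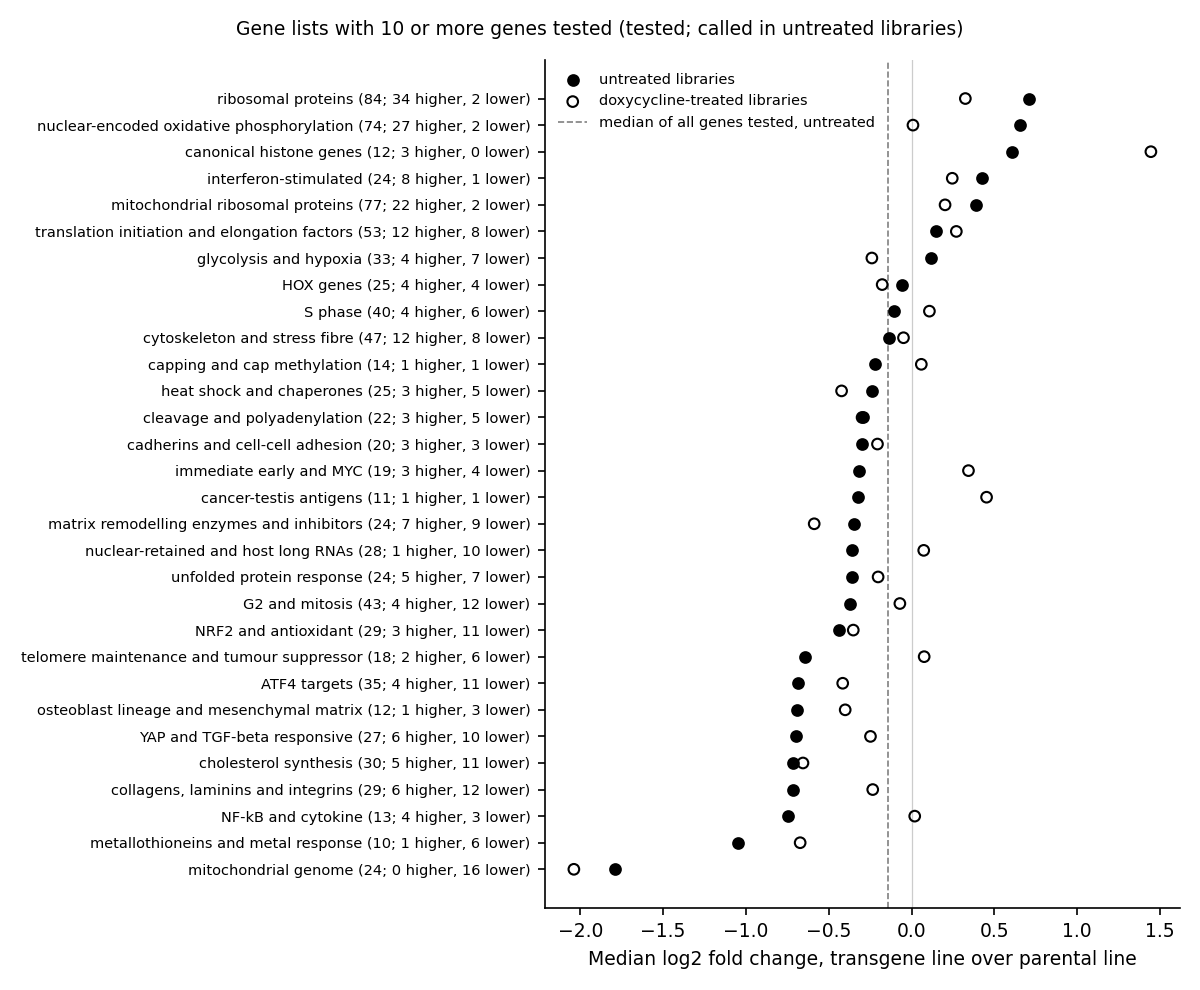
Median log2 fold change, transgene over parental line (x axis), of 30 of the 31 gene lists with 10 or more genes tested, in the untreated (filled) and the doxycycline-treated libraries (open); the labels give the genes tested and those called in the untreated libraries, and the dashed line is the median over the genes tested, -0.14. Of the lists drawn, ribosomal proteins lie highest and the mitochondrial genome lowest in the untreated libraries.

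By chromosome, chromosome 18, which carries RNMT, had the lowest nuclear median, -0.79 over 193 genes, with 78 genes lower (40.4%) and 14 higher. Its 68 genes without an opposite-strand neighbour had a median of -0.45, above the -0.52 of 100 such genes on chromosome 14, and in the treated libraries the median of the chromosome was -0.47. Chromosome 14 had a median of -0.42 over 422 genes (33.2% lower), and -0.17 in the treated libraries. Chromosomes 9, 19 and 5 had the highest medians, 0.13, 0.13 and 0.10, and in the treated libraries 0.17, -0.03 and 0.34.
Among runs of 20 consecutive tested genes, the 6 lowest that do not overlap, ranked by the untreated libraries alone, had medians of -1.61 to -1.46 and lay on chromosomes 4, 8, 14, 17 (2 runs) and 18. Their medians in the treated libraries were -1.75 to -0.59. The 6 highest, on chromosomes 2, 9 (2 runs), 10, 11 and 19, had medians of 1.07 to 1.33, and 0.43 to 0.92 in the treated libraries. Over their untreated genes without an opposite-strand neighbour, 2 to 9 per run, medians of the highest runs spread from -0.13 to 1.43. Those of the lowest runs, with 1 to 7 such genes each, were -1.78 to -0.95. On chromosome 18, from METTL4 to ARHGAP28 (chr18:2537525-6915716), 16 of 20 genes were called lower and none higher, and 1 of the 20 has no opposite-strand neighbour. On chromosome 14, from ENSG00000270038 to WARS1 (chr14:95644508-100376805), 16 were lower and 1 higher. Over all 11766 such runs the middle 95% of medians lay between -1.07 and 0.70. Runs overlap, and no run was tested.

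**Figure D5:**
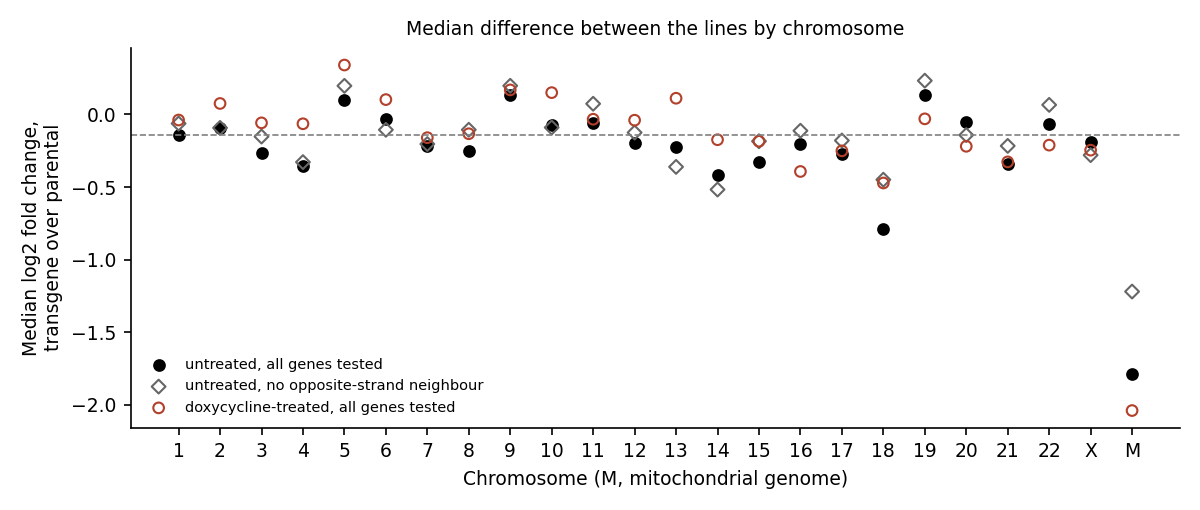
Median log2 fold change, transgene over parental line (y axis), of the genes tested on each chromosome (x axis), in the untreated libraries over all genes (filled) and over genes without an opposite-strand neighbour (diamonds), and in the doxycycline-treated libraries (red circles); the dashed line is the median over the genes tested, -0.14. Over all genes tested, chromosome 18 lies lowest of the nuclear chromosomes in the untreated libraries and the mitochondrial genome lowest of all.

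The doxycycline-treated libraries of the 2 lines share no sample with the untreated ones, but the same instruments, read lengths and clone, and the clone then also makes ΔN-RNMT. Between them 4658 of 12145 genes passed (38.4%), 1865 higher (15.4%) and 2786 lower (22.9%) at 1.5-fold, and without parental library 1 the higher ones numbered 1114. Of the 1943 genes higher without doxycycline, 1877 were also tested with it, and 732 (39.0%) were again at least 1.5-fold higher, while 284 had the opposite sign. Of the 2815 lower genes, 2668 were also tested and 1654 (62.0%) were again lower, with 273 of opposite sign. Among genes without an opposite-strand neighbour the shares were 39.7% of 657 and 53.6% of 745.
The 12 largest rises were called in the same direction in the treated libraries, with a smallest log2 fold change of 2.24 for VSTM1, and so were the 12 falls without an opposite-strand neighbour, with -2.97 for NOTCH3 as the smallest in size. TGFBI was 2402 ± 874 against 252 ± 41.4 CPM (edgeR, log2 fold change 3.25, adjusted p = 0.000107). For ribosomal proteins the median was 0.33 with doxycycline and 0.71 without, for nuclear oxidative phosphorylation genes 0.01 and 0.66, and for the mitochondrial genome -2.04 and -1.79. CDKN1A did not pass in the treated libraries (log2 fold change 0.79, edgeR, adjusted p = 0.0799), and the change in its line difference was itself called (interaction -1.77, adjusted p = 0.0454). CDKN1A was named for its untreated difference, a value that the interaction also uses, so part of the decrease is built in. Over all genes the line difference itself differed with doxycycline for 363 of the 12076 genes tested in both fits (edgeR).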

How the data were processed

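Cytoplasmic RNA was made into 3′ tag libraries (2 μg each), which the authors sequenced and ran through Lexogen's QuantSeq pipeline for human GRCh38. The deposited files hold whole-number gene counts per library, with no normalization by the authors, and the summary rows that close each file were left out (tags outside genes were 0.0747 to 0.101 per gene count in the transgene and 1.14 to 1.497 in the parental line). The strand setting of the counting is not given in the sources used here. Names and positions came from GENCODE 44. Groups followed the sample descriptions. Genes with a base mean over 20 were tested with edgeR 4.0.16 in R 4.3.3 (TMM, quasi-likelihood test, 5 against 3 libraries, Benjamini-Hochberg adjustment at 0.05, calls with a direction at 1.5-fold), the treated libraries likewise. The base mean, as in DESeq2 1.42.0, and the alternatives (DESeq2, limma 3.58.1, other scalings, filters and offsets, thinning, a replicate block, each library left out) are given with their effect after the report. An opposite-strand neighbour lies within 1000 bases, and a covered 3′ end is the last 300 bases. Genes named were the capping genes, the 12 most abundant nuclear genes by the lower line, the 12 largest rises and falls with a symbol whose groups do not overlap with at least 20 CPM in the higher line, up to 4 called members per list and direction plus abundant ones, and markers. In simulated counts for this comparison over 12325 genes, 78 of 100 4-fold and 7 of 100 2-fold changes were called with the right sign, and 1 of 12125 unchanged genes was called. Far fewer genes changed there than were called in the data, which makes the adjusted threshold stricter. These shares are therefore not the power of the comparison itself. Members, gene lists and rules were chosen with earlier results of these data known. XIST and Y-linked genes were left out, and some genes and 1 gene list that the rules name are not reported here.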

Additional observations from a re-analysis of the deposited data

Results flagged for a closer look

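In 13 of 132 genes and library measures tested in the transgene group, 1 of the 5 libraries lay apart from the others by Dixon's criterion. Chance meets this criterion in about 1 of 20 groups, and all 13 were genes. Library 3 was that library for SPARC at 133, CDH2 at 221, B2M at 1216, TUBB2B at 209, MSMO1 at 11.8 and TYMS at 637 CPM. Library 5 was it for VIM at 353, S100A6 at 396, HOXB2 at 43.2, DUSP1 at 18.2 and PAPOLA at 46.7 CPM, library 1 for FAM210A at 33.7 CPM and library 4 for ADM at 48.9 CPM. Libraries 3 and 5 also had the lowest Spearman's rho of any pair within the line, 0.848.

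The line difference (log2, transgene over parental) differed between the doxycycline-treated and the untreated libraries in 16 of 139 genes by edgeR's interaction test. It was larger with doxycycline in RNMT by 2.43 and in MALAT1 by 2.37. For the others the change was negative: SPINK6 -7.88, VSTM1 -2.45, TSTD1 -2.24, RPS27A -2.62, EIF3K -1.99, CDKN1A -1.77, HLA-C -1.71, ITGB4 -2.21, ITGB5 -1.34, ASNS -2.07, PYCR1 -2.14, HSPA5 -2.28, JPX -1.60 and VDAC3 -1.16. The value for SPINK6 rests on untreated parental libraries without a count and is no bound. TSTD1 was already lower in the clone without doxycycline, so its line difference grew in size with it. Adjusted p over these 16 genes lay between 0.0258 and 0.0496. Over all genes tested in both fits, 363 of 12076 were called. Many of the 139 genes were named for their untreated line difference, a value that the interaction also uses. For them a smaller difference with doxycycline is partly built in, so both shares cannot be compared. Doxycycline acts on both lines and induces ΔN-RNMT in 1 of them, so the 2 treatments cannot be told apart in these changes.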

How the results depend on the processing

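Of the 139 genes given with values, 119 were called, and 109 of these stayed called in the same direction under each of the 22 alternatives that gave a value for them, 8 of which leave out a library and 2 of which, on opposite-strand neighbours, were chosen after seeing the data. No called gene changed direction under them. The remaining calls were lost under at least 1 alternative in the same direction.

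Between the untreated lines 4760 genes were called with TMM (1943 higher, 2815 lower). Thinning each library to the shallowest left 2757 (1150 and 1607), and scaling to total counts gave 1147 higher and 4355 lower. Genes without an opposite-strand neighbour gave 1431 (639 and 790), and after thinning 815 (362 and 453), where fewer genes and fewer counts were tested. DESeq2's Wald test called 5428 genes and limma voom 5449. Leaving out 1 library gave 3591 to 5725 calls, 1441 to 2481 higher and 2149 to 3223 lower. Between the treated lines thinning gave 2843 (1144 and 1695), and leaving out 1 library 3143 to 5674 calls, 1114 to 2523 higher and 2029 to 3114 lower, with the fewest higher calls without parental library 1. The shared baseline of 2126 genes fell to 122 with a 1.5-fold limit and was 1500 to 2204 without 1 library.

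Both lines carry replicate numbers, but same-numbered libraries did not deviate together from their group means (correlations across genes 0.00124, -0.246 and -0.147 untreated, 0.00952, -0.631 and -0.469 treated), so the numbers do not pair the samples. With replicate number as a block, 4068 genes were called between the untreated lines (1583 higher, 2485 lower) and 934 between the treated lines (182 higher, 752 lower).

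Uncalled genes near 0 changed sign. RNMT, -0.09, was 0.00408 in DESeq2, 0.00263 with its size factors, 0.0766 without a filter, 0.22 with GC offsets and 0.14 with length offsets, and -0.25 to 0.17 without 1 library. MALAT1 turned to 0.25 in limma voom, 0.00630 without a filter, 0.0537 and 0.24 with GC and length offsets and 0.0836 with the block, and was -0.54 to 0.46 without 1 library. Total counts turned FAM210A to -0.24, RPS23 to -0.14, ACTB to -0.25, FN1 to -0.11, CDH2 to -0.17, RUNX2 to -0.23 and PRAME to -0.0279, and the block turned RUNX2 to -0.0529. Without 1 library FAM210A ran from -0.0608 to 0.35, RPS23 from -0.26 to 0.69, ACTB from -0.0605 to 0.48 and RUNX2 from -0.0513 to 0.37. The MALAT1 share, transgene minus parental, was 0.0125 percentage points over all counted tags and -0.0500 to 0.00191 without 1 library.

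Relative to the median over all genes, list medians changed sign as follows. The NF-kB list turned to 0.44 with thinning, 1.14 without neighbours and 0.92 with both, and was -0.71 to 0.97 without 1 library. Collagens, laminins and integrins turned to 0.13 and 0.55 with thinning and with both, and matrix remodelling genes to 0.33, 0.29 and 1.32 with thinning, without neighbours and with both, and to 0.0189 with GC offsets. Glycolysis and hypoxia turned to -0.27 and -0.26 without neighbours and with both, translation factors to -0.0591 and -0.71 with thinning and with both, and osteoblast and mesenchymal matrix genes to 0.86 with both. Chromosome 18, -0.65 relative to all genes, was -0.38 over genes of at least 20 CPM in both lines, -0.37 without neighbours and -0.38 with thinning as well. The cause of these shifts was not tested. Depth limited the parental line, where 3 counts over the group are 0.39 CPM. In the simulation 100 2-fold changes gave 7 calls, but few genes were changed and depth was not varied, so the part of depth was not tested.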
